A study of Homo sapiens with 6 samples.

Results

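The cytosolic ribosomal protein genes of 6 human prostate cancer cell lines were examined. They were taken as all protein-coding entries whose symbol follows the RPL, RPS, RPSA or RPLP naming of ribosomal proteins, which gave 80 genes out of 47219 combinations of symbol and gene class in the deposited tables. Of these, 31 encode proteins of the small subunit and 49 proteins of the large subunit, counting variant copies such as RPL3L. The castration-sensitive lines were LNCaP (written LnCaP in the labels) and LAPC4, both grown in RPMI with 10% FBS, and VCaP, grown in DMEM with 10% FBS. The castration-resistant lines were LNCaP-abl, VCaP-CR and LAPC4-CR, all grown in RPMI with B27 supplement and 10% FBS from which charcoal had removed most steroids. No line received any other treatment. Serum, supplement and state changed together from each parent to its derivative, as did the basal medium for VCaP, so their parts cannot be told apart. Each line gave 1 total RNA library.

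A ribosome is built from ribosomal RNA and one copy of most ribosomal proteins, so cells make these proteins in nearly matched amounts. Their mRNAs are among the most abundant in growing cells, and most begin with a cytidine followed by a run of pyrimidines, the terminal oligopyrimidine or TOP motif, through which the mTOR pathway and the RNA-binding protein LARP1 adjust translation. Ribosomal protein genes have left many processed pseudogenes in the genome and often carry small nucleolar RNAs (snoRNAs) in their introns. Several free ribosomal proteins bind MDM2, which lets cells sense defects in ribosome assembly.

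Total counts ran from 8661337 to 22433655, with more counts in each derivative than in its parent. Short RNA classes took 13.0% to 27.0% of the counts and a smaller share in the resistant library of each pair. Levels are given as FPKM (fragments scaled to gene length and library total) divided by a factor for each library, hereafter scaled FPKM. Where 3 changes are listed without names, they belong to the LNCaP, VCaP and LAPC4 lines in that order. The luminal markers KRT8, KRT18 and EPCAM were at 13.4 scaled FPKM or more in all 6 libraries, and HOXB13 was at 31.3 or more except in LAPC4-CR, where it was at 1.60. The leukocyte marker PTPRC and the fibroblast markers COL1A1 and COL1A2 were at 0.712 or less. ERG, the gene fused in VCaP cells, stood at 16.9 (VCaP) and 5.46 (VCaP-CR) against 0.186 or less elsewhere.

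The sequence around the listed start site is shown for some of the members with clear differences below and for 2 members whose listed start lacks the motif. RPS29, whose 1 listed start also lacks it, is not shown, although its change in the LNCaP pair was -1.10. RefSeq promoter entries (build GRCh38.p14) matched 63 of the 80 members. A start was counted as TOP when its first base was C and the next 4 bases were all C or T on the transcribed strand, at any listed start of the gene. It was found in 46 of 63 matched members (73.0%), against 5.14% of the 27303 genes in the table. The windows run from 10 bases before the start through the first 15 transcribed bases, read 5′ to 3′ on the gene's strand, and capitals mark the C and the unbroken pyrimidine run after it.
RPL13A: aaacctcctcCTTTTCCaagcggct
RPS3: cgagccacttCCTTTCCTTTCagcg
RPS3A: cccacttccgCCCTTTTggctctct
RPS14: ccctcccactCTCTCTTTCCggtgt
RPS10: catgctccttCCTTTCCagccccgg
RPS19: ccccgtcgttCCCTTTCCCCTggct
RPL22: cgctcacctcCCTTTCTaactccgc
RPS18: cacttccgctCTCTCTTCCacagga
RPL10: ggaggagcgcCTCTTTCCCTTCggt
RPL10L: gtagttaagagagcgcattttgact
RPS26: acataacctcgattttcttccgcca

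These windows lie at chr19:49487598-49487622 (plus strand) for RPL13A, chr11:75399508-75399532 (plus) for RPS3, chr4:151099618-151099642 (plus) for RPS3A and chr5:150449725-150449749 (minus) for RPS14. They lie at chr6:34426055-34426079 (minus) for RPS10, chr19:41860245-41860269 (plus) for RPS19, chr1:6199581-6199605 (minus) for RPL22 and chr6:33272065-33272089 (plus) for RPS18. The last 3 lie at chrX:154398367-154398391 (plus) for RPL10, chr14:46651767-46651791 (minus) for RPL10L and chr12:56041908-56041932 (plus) for RPS26. Across the members with a TOP start, the run had a median of 8 bases and ran from 5 bases up to the full 15 transcribed bases of the window, where its measurement stops. RPL10, the X-linked gene, has such a start among its 3 listed starts, whereas the 1 listed start of its autosomal copy RPL10L does not. Of the comparison lists, the motif was found in 12 of 14 matched translation factors and other mRNAs listed as TOP (85.7%), in 16.7% of 30 ribosome biogenesis factors and in 8.70% of 69 mitochondrial ribosomal proteins.

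The first question was how much of each library the 80 genes took. LNCaP had 4.20% of all its counts in ribosomal protein genes and its derivative LNCaP-abl 3.09%. VCaP and VCaP-CR had more, at 5.64% and 5.25%. LAPC4 stood at 4.02% and LAPC4-CR at 3.09%. Both VCaP libraries lay above the other 4, and the resistant library was the lower one in 3 of 3 pairs. The log2 changes of the share were -0.45 for LNCaP, -0.11 for VCaP and -0.38 for LAPC4, a mean of -0.31 ± 0.18 (SD, n = 3 pairs). An exact two-sided sign-flip test gave p = 0.25, the smallest that 3 pairs allow. Wilson 95% intervals reached at most 0.0134 points from each share; they cover counting error only.

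The share of short RNA classes moved beside these values, from 22.1% to 14.9%, 27.0% to 21.5% and 23.4% to 13.0%. A smaller short RNA share leaves more counts for all other genes. Among protein-coding counts alone, ribosomal protein genes made up 6.20% (LNCaP), 3.99% (LNCaP-abl), 8.99% (VCaP), 7.72% (VCaP-CR), 5.89% (LAPC4) and 3.89% (LAPC4-CR). With that denominator the log2 changes were -0.64, -0.22 and -0.60. Listed pseudogenes of ribosomal proteins held 0.555% to 1.10% of all counts and were also lower in each resistant library, by log2 changes of -0.55, -0.16 and -0.53.

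**Figure D1:**
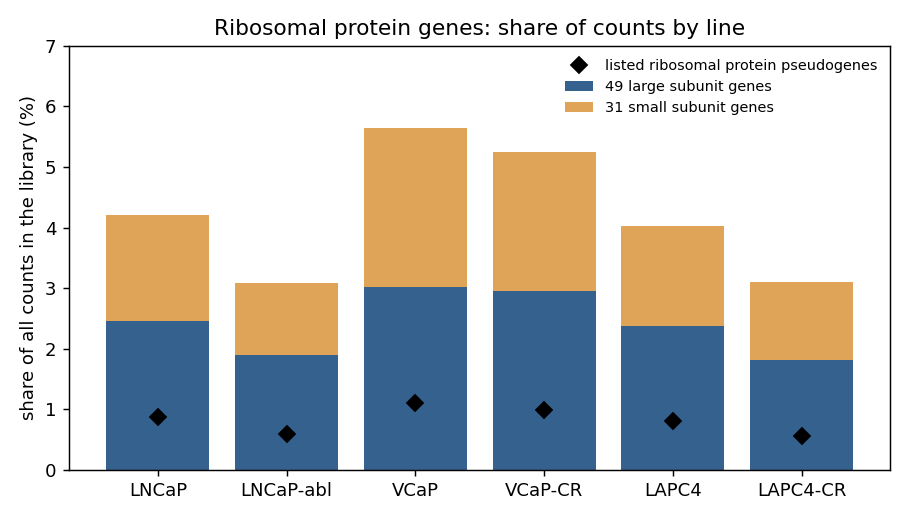
Stacked bars give the share of all counts in each library (%) held by the 49 large and 31 small subunit genes, and diamonds the share held by listed ribosomal protein pseudogenes. The VCaP and VCaP-CR bars reach 5.64% and 5.25%, and each resistant line stands below its parent.

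The genes of the module differed widely in level. RPL27, a large subunit protein, had the highest mean over the 6 libraries at 1564 scaled FPKM, and RPL26 at 1080 and RPS16 at 941 were also among the 5 highest. At the low end stood RPL3L at 0.486, RPL10L at 3.21, RPL36A at 5.29, RPL39L at 6.75 and RPS26 at 24.5. Of the 80 genes, 42 were at 100 or more in every library. These differences between genes depend on the deposited gene length, which joins all annotated exons. The listed lengths ran from 475 bases for RPL27 to 8153 for RPL37.

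By library, the median over the 80 genes was 183 (LNCaP), 115 (LNCaP-abl), 268 (VCaP), 246 (VCaP-CR), 179 (LAPC4) and 112 (LAPC4-CR) in scaled FPKM. The 2 VCaP libraries were again highest, and LNCaP and LAPC4 differed little from each other, as did their resistant derivatives. RPL27 was the most abundant member in LNCaP, LNCaP-abl, VCaP-CR and LAPC4-CR. RPL26 led in LAPC4 at 1425.

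The balance between the subunits was then compared. Small subunit genes held 41.7% (LNCaP), 38.6% (LNCaP-abl), 46.6% (VCaP), 43.8% (VCaP-CR), 41.1% (LAPC4) and 41.6% (LAPC4-CR) of the counts of all members. The log2 ratio of summed counts, small over large, differed by -0.18, -0.16 and 0.03 between derivative and parent (mean -0.10 ± 0.12 SD, n = 3 pairs, exact two-sided sign-flip p = 0.5). The spread between pairs was larger than the mean change. With the difference of median log2 levels in place of summed counts, the mean change turned to 0.026 (exact sign-flip p = 0.75).

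The change from each parent to its resistant derivative was computed for every gene as the difference in log2(scaled FPKM + 1), a scale on which low genes show less than their true fold. With 1 library per line these changes have no replicate check. The median over the 80 genes was -0.45 for LNCaP, -0.12 for VCaP and -0.44 for LAPC4, corresponding to levels 26.9%, 7.90% and 26.0% lower. Over 11335 tested protein-coding genes the medians were 0.08, -0.01 and 0.02. In the LNCaP pair 75 of 80 genes were lower in the resistant line (background 44.4%), in the VCaP pair 54 of 80 (background 51.4%) and in the LAPC4 pair 70 of 80 (background 48.2%).

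A fold of 1.5 or more downward was reached by 31 of 80 genes in the LNCaP pair (background 11.1%), 8 in the VCaP pair (background 7.09%) and 27 in the LAPC4 pair (background 12.8%). Upward, it was reached by 0 genes in the LNCaP pair (background 18.1%), 0 in the VCaP pair (background 7.92%) and 1, RPS26, in the LAPC4 pair (background 16.5%). In all 3 pairs together, 42 genes were lower (52.5%, background 13.9%) and 0 were higher (background 18.1%). The 8 genes past 1.5-fold in the VCaP pair, which included RPS14, RPS3A and RPL13A, were a share near the background, and their number was 3 in unscaled FPKM and 3 with the length trend removed.

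**Figure D2:**
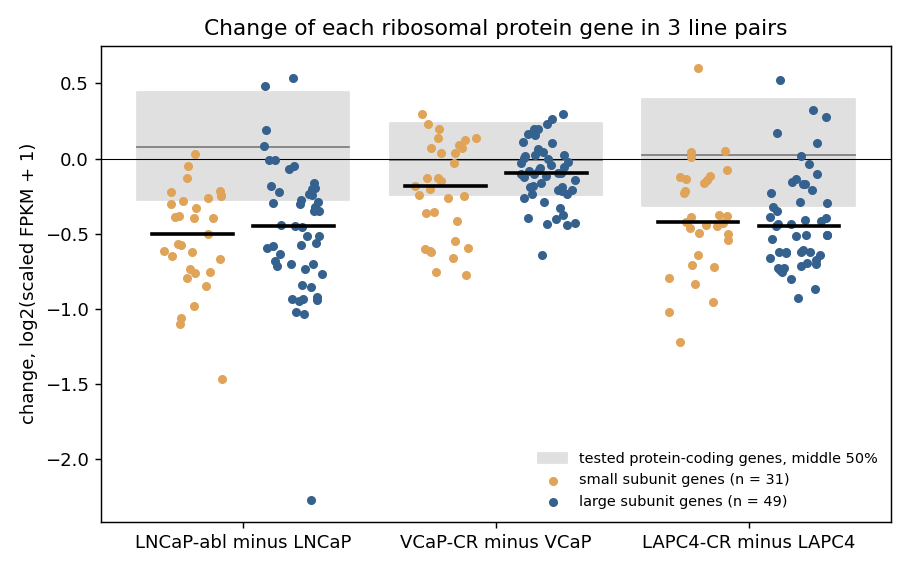
Each point is 1 gene, with its change in log2(scaled FPKM + 1) from the parental to the resistant line, by subunit; black bars are medians and the grey bands hold the middle 50% of tested protein-coding genes. Medians of both subunits lie below 0 in each pair, at -0.50 (small) and -0.45 (large) for LNCaP, -0.18 and -0.10 for VCaP, and -0.42 and -0.45 for LAPC4.

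Without any scaling of FPKM the medians were -0.43, -0.04 and -0.35, beside 0.10, 0.04 and 0.09 over tested protein-coding genes. In that setting 34 genes were lower in all 3 pairs. Removing the linear trend of the change on gene length gave -0.42, -0.03 and -0.38, beside 0.07, -0.02 and 0.03 over tested protein-coding genes. The VCaP pair then had 42 of 80 genes lower, and its median lay close to that of the protein-coding genes.

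The same difference was tested across the 3 pairs on the counts of all 16233 tested features with edgeR's quasi-likelihood test, keeping the parental line as a block. RPL3L did not pass the filter on low values, which left 79 genes. After Benjamini-Hochberg adjustment, 0 of 79 passed the 5% threshold in edgeR (background 0% higher and 0% lower), and the smallest adjusted p was 0.592. DESeq2 and limma also called 0 members. The edgeR log2 change was negative for 74 of 79 (93.7%, background 50.8%), with a median of -0.32 against -0.01 over all tested features. At an unadjusted p under 0.05 in edgeR, 8 were lower (10.1%, background 3.38%) and 0 higher (background 4.47%). The count of 8 was 2 without the LNCaP pair, 4 without the VCaP pair and 0 without the block. It was 5 without a filter on low values, 4 with short RNA classes entered, 15 with protein-coding genes only and 14 in limma.

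RPL13A, a large subunit protein also known from translational silencing in inflammation, had the smallest p. Its scaled FPKM was 396 (LNCaP), 195 (LNCaP-abl), 807 (VCaP), 518 (VCaP-CR), 358 (LAPC4) and 188 (LAPC4-CR). Each resistant library was below its parent, but the 2 states overlapped because both VCaP libraries were high. Its edgeR log2 change was -0.85 ± 0.22 (SE; unadjusted p = 0.00741, adjusted p = 0.592, lower in 3 of 3 pairs). RPL13A (ENSG00000142541) is listed on chromosome 19 from 54682623 to 54687377, in coordinates for which the submitters' processing notes name hg18. Its 6 named pseudogenes held counts equal to 90.7% of its own, and with these added its changes, without a pseudocount, were -1.02, -0.67 and -0.93.

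RPS3, which lines the mRNA entry channel of the small subunit and also acts in DNA repair, was at 103 (LNCaP), 66.7 (LNCaP-abl), 336 (VCaP), 222 (VCaP-CR), 119 (LAPC4) and 50.8 (LAPC4-CR) scaled FPKM. It was lower in 3 of 3 pairs, most in the LAPC4 pair at -1.22, and its edgeR log2 change was -0.81 ± 0.24 (SE; adjusted p = 0.592). RPL13A and RPS3 were the 2 genes that were at least 1.5-fold lower in all 3 pairs (background 0.459%). They sat near that bound in the VCaP pair, at -0.64 and -0.60 where the bound is -0.58, and 0 genes met it in unscaled FPKM.

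RPS3A, a small subunit protein near the mRNA exit, had the largest change among genes with at least 50 counts in both libraries of a pair, -1.46 in the LNCaP pair, from 393 in LNCaP to 142 in LNCaP-abl. VCaP and VCaP-CR were at 505 and 319 scaled FPKM, and LAPC4 and LAPC4-CR at 239 and 178. Its edgeR log2 change was -0.84 ± 0.28 (SE; adjusted p = 0.592), and -0.53 without the LNCaP pair. RPS3A has 16 named pseudogenes with counts equal to 108% of its own, and with these added the 3 changes, without a pseudocount, were -1.26, -0.62 and -0.72, again lower in each pair.

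RPS14, the small subunit gene lost in the 5q- syndrome, had the largest change of the VCaP pair at -0.78, from 260 to 152. LNCaP and LNCaP-abl stood at 158 and 106 for this gene, and LAPC4 and LAPC4-CR at 136 and 96.0. Other genes with an unadjusted p under 0.05 included RPL10L, RPSA and RPS29. RPS29 overlaps RN7SL1, an abundant RNA of the signal recognition particle with 16584 to 46323 counts per library, so its values are uncertain.

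**Figure D3:**
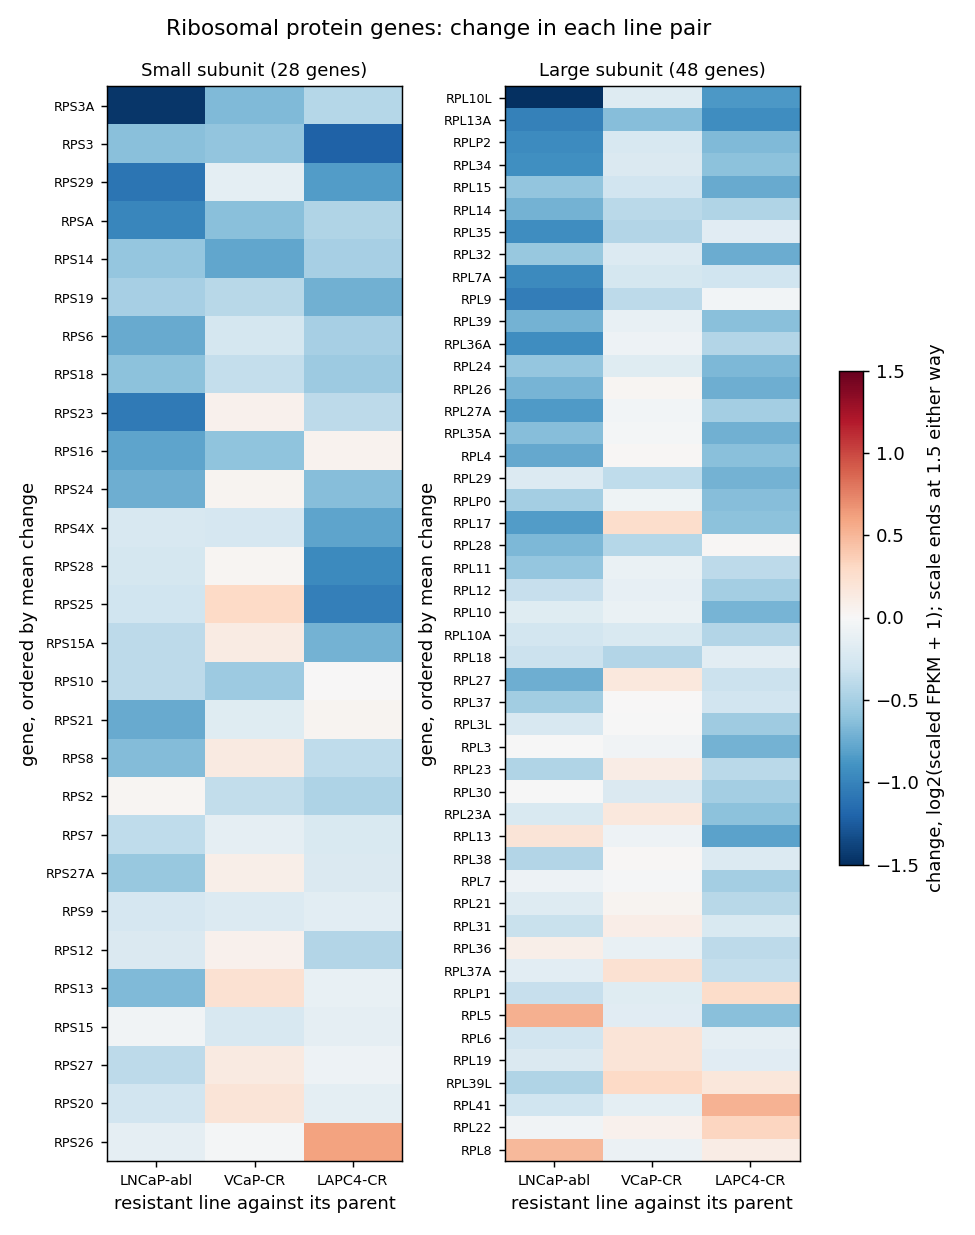
Colour gives the change in log2(scaled FPKM + 1) of 28 small and 48 large subunit genes in the resistant line against its parent, with genes ordered by their mean change. Blue (lower in the resistant line) fills most of the LNCaP-abl and LAPC4-CR columns, where 75 and 70 of all 80 genes were lower, and the VCaP-CR column is paler, with 54 of 80 lower.

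Beyond these genes, the largest downward changes were the following. In the LNCaP pair RPS29 (-1.10), RPS23 (-1.06) and RPL9 (-1.03) followed RPS3A. RPS23, which helps keep decoding accurate, went from 131 to 62.2 scaled FPKM there, but from 96.9 to 102 in the VCaP pair. The named pseudogenes of RPL9 held counts equal to 130% of its own. With these added, its changes without a pseudocount were -0.79, -0.33 and -0.38, against -1.04, -0.40 and -0.04 alone. In the LAPC4 pair RPS25 (-1.02) and RPS28 (-0.95) followed RPS3. RPS25, which some viral internal ribosome entry sites need, was at 319 in LAPC4 against 157 in its derivative, and at 342 in VCaP against 419 in its derivative. Across the 78 genes with at least 50 counts in every library, Pearson's r between the changes of 2 pairs was 0.27 (LNCaP and VCaP), 0.15 (LNCaP and LAPC4) and 0.08 (VCaP and LAPC4). These are correlations across genes, which are not independent replicates.

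A few genes were higher in a resistant line. RPL5 and RPL8, both large subunit proteins, had the 2 largest upward changes of the LNCaP pair. RPL5 was at 159 (LNCaP), 232 (LNCaP-abl), 344 (VCaP), 307 (VCaP-CR), 221 (LAPC4) and 143 (LAPC4-CR), with changes of 0.54, -0.16 and -0.62. RPL8 was at 236 (LNCaP), 330 (LNCaP-abl), 313 (VCaP), 293 (VCaP-CR), 212 (LAPC4) and 228 (LAPC4-CR), with changes of 0.48, -0.09 and 0.11. RPL13 (0.19) and RPL36 (0.09) came next in the LNCaP pair, and both were lower in the other 2 pairs.

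In the VCaP pair the largest upward changes were small, 0.30 for RPL39L, 0.29 for RPS25, 0.27 for RPL17 and 0.23 for RPL37A. In the LAPC4 pair RPS26 went from 8.57 to 13.5 (0.60), RPL41, the shortest ribosomal protein, from 69.3 to 100.1 (0.52), RPL22 from 48.6 to 61.0 (0.32) and RPLP1 from 225 to 272 (0.28). RPS26 and RPL41 had fewer counts of their own than their named pseudogenes, which held 535% and 154% of them. On the scale of scaled counts without a pseudocount, the change of RPS26 was 0.66 alone and 0.68 with the pseudogenes added, and that of RPL41 was 0.53 alone and 0.16 with them.

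The second test asked which genes differed between the 3 lineages, each made of a parent and its derivative. In edgeR's quasi-likelihood F test with Benjamini-Hochberg adjustment, 19 of 79 members passed the 5% threshold (24.1%), against 12.7% of all tested features. In all 19 the VCaP lineage was highest, against 5.27% of tested features that were called with VCaP highest. Both VCaP libraries lay above the other 4 for each of the 19, which selection by this test makes likely. Without that selection it held for 63 of all 80 members, against 15.3% of tested protein-coding genes. In unscaled FPKM it held for 45 members, against 8.85%. Of the 19, 11 encode small and 8 large subunit proteins. LAPC4 was the lowest lineage for 10 and LNCaP for 9, and the fold between the highest and lowest lineage means ran from 2.43 to 5.06. Leaving out the VCaP pair left 0 members called between LNCaP and LAPC4, beside 672 calls among all features, and DESeq2 on all 6 libraries called 37 members. Parent and derivative are related lines and not repeat cultures, so the p-values measure the spread within lineages after the shared change by state.

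RPS10, a small subunit protein at the beak of the subunit, had the smallest p. Its scaled FPKM was 188 (LNCaP), 143 (LNCaP-abl), 652 (VCaP), 446 (VCaP-CR), 108 (LAPC4) and 109 (LAPC4-CR). The VCaP lineage mean exceeded that of LAPC4 by 5.06-fold (edgeR adjusted p = 0.0114). RPS10 (ENSG00000124614) is listed on chromosome 6 from 34493209 to 34501880 in the same coordinates.

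RPS19, needed to mature the 3′ end of the small subunit RNA, was at 353 (LNCaP), 249 (LNCaP-abl), 1584 (VCaP), 1189 (VCaP-CR), 723 (LAPC4) and 438 (LAPC4-CR) scaled FPKM. Here LNCaP was the lowest lineage, with a fold of 4.61 (edgeR adjusted p = 0.0123). RPL22, a large subunit protein that also regulates splicing of its paralog RPL22L1, was at 30.6 (LNCaP), 29.5 (LNCaP-abl), 134 (VCaP), 140 (VCaP-CR), 48.6 (LAPC4) and 61.0 (LAPC4-CR) scaled FPKM. Its fold was 4.55 (edgeR adjusted p = 0.0142), and parent and derivative were close in LNCaP and VCaP, with changes of -0.05 and 0.06. RPL22 overlaps RNF207 in the deposited tables.

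RPS3 and RPS18 were also among the 6 smallest p-values, with folds of 3.28 and 3.02. RPS18 was at 480 (LNCaP), 314 (LNCaP-abl), 1034 (VCaP), 809 (VCaP-CR), 362 (LAPC4) and 248 (LAPC4-CR) scaled FPKM. Of the 19 called genes, 12 were also lower in the resistant line of all 3 pairs. Among all 80 members 42 were (52.5%), and among tested protein-coding genes 13.9%. Whether the called genes differed from the other members in this was not tested.

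**Figure D4:**
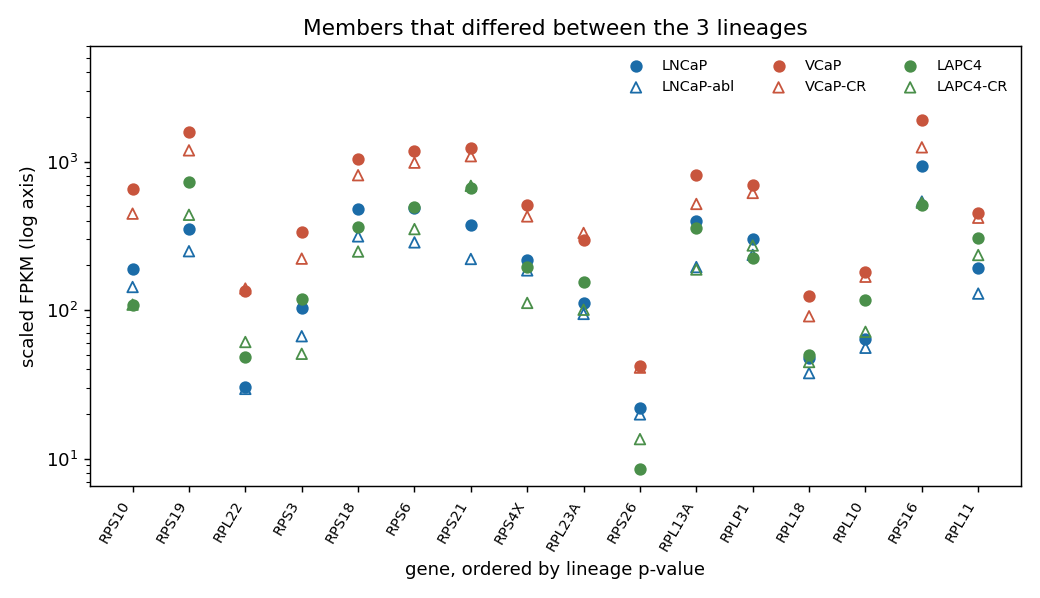
Scaled FPKM (log axis) of 16 of the 19 genes that passed the lineage test, ordered by p-value; filled circles are parental lines, open triangles resistant lines, and colours mark the lineage. For each gene the 2 VCaP symbols lie above the other 4, by a fold of lineage means between 2.43 (RPL13A) and 5.06 (RPS10).

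The VCaP lineage had the highest mean log2 level for 71 of all 80 members (88.8%), against 31.3% of tested protein-coding genes. LNCaP was highest for 5 and LAPC4 for 4. The scaling factor was lowest in the 2 VCaP libraries, and in unscaled FPKM the count was 65 of 80, against 19.6% of protein-coding genes.

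Roles outside the general one were looked at by list. The stalk proteins RPLP0, RPLP1 and RPLP2 form the flexible arm that recruits elongation factors. Parent and derivative stood at 454 and 317, 863 and 825, and 513 and 329 scaled FPKM for RPLP0. For RPLP2 they stood at 187 and 96.8, 270.0 and 229, and 198 and 125. RPLP1 was at 300.0 and 235, 700.0 and 615, and 225 and 272, so that it alone of the 3 was higher in LAPC4-CR than in LAPC4. RPLP1 passed the lineage test (edgeR adjusted p = 0.0378) and 0 of the 3 passed the test by state.

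The 5 listed members that bind or regulate the MDM2 and p53 pathway were RPL5, RPL11, RPL23, RPL26 and RPS7, and their median changes were -0.45, -0.10 and -0.41. RPL11, which binds MDM2 together with RPL5, was at 193 and 129, 448 and 419, and 307 and 235 in the pairs, lower in 3 of 3. Its partner RPL5 went the other way in the LNCaP pair. RPL23 was one of 4 members whose lowest lineage was VCaP, at 126 and 136 against 150 to 215 in the other 4 libraries.

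The 9 listed genes mutated in Diamond-Blackfan anaemia, an inherited failure of red cell production, had medians of -0.39, -0.13 and -0.39. Of them, 5 passed the lineage test (55.6%), among them RPS19, RPS10, RPS26 and RPL11, all highest in VCaP. Calls with VCaP highest made up 24.1% of the 79 tested members and 5.27% of all tested features. Whether these 9 genes differed from the other members was not tested.

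The paralogs known from restricted tissues were low. RPL3L, the heart and skeletal muscle counterpart of RPL3, had 8 to 26 counts per library and 0.317 to 0.943 scaled FPKM, which was 0.0906% to 0.340% of RPL3. The Poisson 95% interval was 0.616 to 1.38 in LAPC4, above that of its derivative (0.201 to 0.536). The LNCaP interval of 0.278 to 0.996 overlapped both. Percentages of the RPL3 level depend on the listed lengths, 2134 bases for RPL3L and 4787 for RPL3.

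RPL10L, the testis counterpart of the X-linked RPL10, was at 11.9 scaled FPKM in LNCaP on 89 counts (Poisson 95% interval 9.56 to 14.7). That was 18.8% of the RPL10 level there, a value that depends on listed lengths of 807 bases for RPL10L and 4825 for RPL10. In counts, RPL10 had 2834 in LNCaP. RPL10L was at 1.68 in LNCaP-abl on 16 counts (0.958 to 2.72). It was at 1.90 in VCaP, 1.54 in VCaP-CR and 1.73 in LAPC4 on 15 to 20 counts, and 0.498 in LAPC4-CR on 10 counts. The LNCaP interval lay above those of the other 5 libraries. The edgeR log2 change by state was -1.67 ± 0.56 (SE; adjusted p = 0.592, lower in 3 of 3 pairs), with the LNCaP pair at -2.27 on the log2(scaled FPKM + 1) scale. Without the LNCaP pair the edgeR value was -0.98, and -2.32 with the VCaP pair left out; in limma it was -1.11. RPL10 itself was at 63.4 in LNCaP and 55.8 in LNCaP-abl, the lowest of the 6 libraries, and at 180 and 168 in VCaP and VCaP-CR (edgeR adjusted p by lineage 0.0399). RPL10L has no introns, and reads that match both genes could be assigned to either.

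RPL39L, a paralog of RPL39 described in testis and cancer cells, was at 4.71 to 8.08 in all 6 libraries on 59 to 213 counts, 3.53% to 6.25% of RPL39. Its changes were -0.46, 0.30 and 0.17 while those of RPL39 were -0.71, -0.11 and -0.63. RPL39L as a share of RPL39 was higher in each resistant library, at 4.84% and 5.49%, 3.55% and 4.85%, and 3.53% and 6.25%. Each value came from 1 library, and the difference was not tested. The size of these percentages depends on the listed lengths, 1060 bases for RPL39L and 2141 for RPL39.

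**Figure D5:**
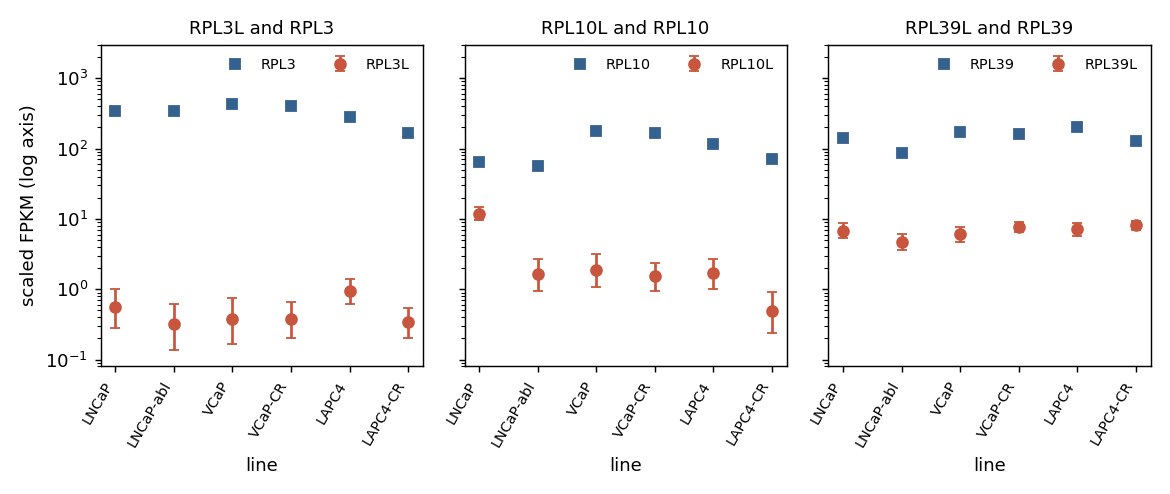
Scaled FPKM (log axis) of 3 paralogs with restricted expression (circles, with exact 95% Poisson intervals for counting error) and of their counterparts (squares) in the 6 lines. RPL10L stands at 11.9 in LNCaP and between 0.498 and 1.90 in the other 5 lines, while RPL3L stays below 1 and RPL39L between 4.71 and 8.08.

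Features that the naming rule did not use were also compared. In 25 of 80 members (31.3%) at least 1 listed snoRNA lay inside the gene, 49 in all, against 1.43% of tested protein-coding genes. The median changes were -0.56, -0.08 and -0.51 for these 25 and -0.39, -0.13 and -0.39 for the other 55. Members with a TOP start (n = 46) had medians of -0.58, -0.13 and -0.44, and the 17 matched members without one had -0.38, -0.13 and -0.61. The difference between these medians was not tested.

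Named pseudogenes were listed for 71 members, up to 18 for 1 gene (RPL21). With the counts of these pseudogenes added to each member, 42 genes were lower in all 3 pairs and 0 higher. The sign differed for 0 genes in LNCaP, 2 in VCaP and 2 in LAPC4. Of all 80 members, 30 overlapped another listed feature. Their medians were -0.37, -0.06 and -0.45, beside -0.51, -0.14 and -0.43 for the 50 without an overlap.

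Other genes of the translation machinery gave the context. Of these lists, 0 genes passed the test by state in edgeR, where 0 of 16233 features did. The 19 tested translation factors and other TOP mRNAs had medians of -0.37, -0.06 and -0.22, with 8 of 19 lower in all 3 pairs (background 13.9%). EEF2, which moves the ribosome along the mRNA, had the lowest mean change of that list. It was at 994 and 883, 870.1 and 656, and 1225 and 508 scaled FPKM in parent and derivative. PABPC1, the poly(A)-binding protein, had the highest, at -0.50, 0.19 and 0.48.

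The 37 ribosome biogenesis factors, which process ribosomal RNA and assemble subunits, had medians of -0.29, -0.05 and 0.47. In the LAPC4 pair 17 of 37 were at least 1.5-fold higher and 0 lower (backgrounds 16.5% and 12.8%). In the LNCaP pair 0 were higher and 10 lower (backgrounds 18.1% and 11.1%), and for VCaP 3 were higher and 6 lower (backgrounds 7.92% and 7.09%). POLR1A, the largest subunit of RNA polymerase I, went from 4.34 to 5.49, 3.70 to 6.91 and 2.29 to 6.89 (changes of 0.28, 0.75 and 1.26). NHP2, a protein of box H/ACA snoRNA particles, had -0.14, -1.56 and -0.39. The 74 mitochondrial ribosomal proteins had medians of -0.14, -0.25 and -0.06.

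Among 15 tested regulators of ribosome production the medians were -0.08, 0.15 and 0.31. MYC, a transcription factor that drives ribosome production, had changes of -0.96, -0.31 and -1.37 (edgeR log2 change -0.90, adjusted p = 0.592). MTOR had changes of -0.35, 0.27 and 0.53, and MDM2 had -0.41, 0.67 and 1.45. The 8 tested ribosomal protein genes with other names, such as FAU, had medians of -0.30, 0.01 and -0.29. Of these 8, RPL22L1 had the lowest mean change, with -1.16, 0.08 and -0.93, and RPS27L the highest, with -0.59, 0.08 and 0.90. The 209 tested ribosomal protein pseudogenes had medians of -0.52, -0.11 and -0.38. With the length trend removed these were -0.30, 0.21 and -0.027, against -0.42, -0.03 and -0.38 for the genes themselves. Whether reads of the genes were counted at pseudogenes was not tested.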

How the data were processed

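RNA was measured in 6 cell lines with 1 library each (RNeasy, SOLiD Total RNA-Seq kit, per the labels' protocols). The submitters' processing notes name hg18 and HTSeq without giving their roles; the sources used here do not give the aligner, the strand setting or the handling of reads that match several places. Per the file headers, each table of 51698 entries holds a count and an FPKM value per gene. The deposited FPKM equalled the count over gene length and total count within 1% for 100% of values; lengths for LAPC4-CR came from the other tables. The 63 promoter entries come from RefSeq.

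Deposited counts were summed by symbol and class. FPKM was divided by the median ratio over 11600 genes (factors 0.847 to 1.11). Features were tested where their mean scaled FPKM reached 1 (16233, of which 11335 were protein-coding); 4302 short RNA features were left out, a choice made after the tables were seen. Tests used edgeR 4.0.16 (TMM, line as block, R 4.3.3) with Benjamini-Hochberg adjustment at 5%, and DESeq2 1.42.0 and limma 3.58.1 as alternatives; the edgeR script was tested on simulated data. Pairs come from the line names. Deviations from the state means correlated at 0.46 (LNCaP), 0.73 (VCaP) and 0.59 (LAPC4) within pairs, against -0.48 to -0.06 between lines. Because deviations cancel out within each state, positive values within pairs force negative ones between lines on balance. The sign of the latter is therefore no separate check of the pairing.

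Named members were the 5 highest and 5 lowest means, the 4 largest changes either way in each pair (50 counts or more), the 5 smallest p-values by state, the 6 by lineage and the role lists; from other lists, the extremes of the mean change and MYC, MTOR and MDM2. RPSA, RPL37, RPL21 and other members named outside this rule were chosen after their values were seen. Members and lists were chosen with earlier results of these data known. Alternatives covered tools, filters, normalization, pseudocounts, length, pseudogenes and left-out pairs. Precision is limited by 1 library per line, and Poisson and Wilson 95% intervals cover counting error only. A few members and list genes that the rule would name are not reported here and are left out of the plots with gene names; the counts and medians include them.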

Additional observations from a re-analysis of the deposited data

How the results depend on the processing

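The lower share of ribosomal protein counts in resistant lines kept its direction under all 6 alternatives. Some of these could not have reversed it. The share was lower in each pair, so leaving out 1 pair had to keep the direction. So did adding the pseudogenes, whose own share was also lower in each pair. The small to large subunit ratio turned from -0.10 to 0.026 with median levels. By state, 0 members were called under every alternative, and without the replicate block edgeR called 0 features in either direction and 0 members at an unadjusted p under 0.05, against 8 with it. Among all features, DESeq2 called 82 higher and 55 lower by state, edgeR without a filter 96 and 60, and leaving out 1 pair 0 to 13 and 1 to 20. By lineage, DESeq2 called 3977 features and 37 members, edgeR without a filter 4906 and 38, and protein-coding genes alone gave 1293 features; leaving out 1 pair gave 672 to 3565 features and 0 to 26 members, the lowest values being those without the VCaP pair. The count of members at least 1.5-fold higher in the LAPC4 pair was 0 with a pseudocount of 5 or upper-quartile scaling, and 2 in unscaled FPKM or without the length trend; the count at least 1.5-fold lower in the VCaP pair was 3 in both of the latter. Members at least 1.5-fold lower in all 3 pairs numbered 0 in unscaled FPKM and 1 with TMM factors or without the length trend. Without the length trend, list medians were -0.057 for ribosomal proteins under other names (LAPC4 pair), -0.11 (VCaP) and 0.064 (LAPC4) for mitochondrial ribosomal proteins, and -0.30 (LNCaP), 0.21 (VCaP) and -0.027 (LAPC4) for pseudogenes; with a pseudocount of 5 the LNCaP value for pseudogenes was -0.28. The cause was not tested. Adding short RNA classes to the test and pseudogene counts to the members were chosen after the data were seen.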
